A study of Capra hircus with 13 samples.

Results

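Goat 8-cell embryos in which YTHDF2 had been knocked down were compared with 8-cell embryos that received a negative control (NC) siRNA. The 4 libraries of these 2 groups, out of 13 in the series, were taken by their labels, 2 of YTHDF2 siRNA embryos and 2 of NC embryos. Embryos of both groups were made by IVF, injected as zygotes 8 h after it and collected at the 8-cell stage, at 72 h after IVF. Each library was made by Smart-seq2 from 15 pooled embryos. The YTHDF2 group received a mixture of 2 siRNAs at 20 µM, and the NC group received a commercial universal negative control siRNA. The labels call the NC group wild type, although it was injected. They do not say whether the libraries of a group came from separate cultures, so the p-values below measure only the spread between these libraries. The other 9 libraries, 3 each of MII oocytes and of untreated 4-cell and 8-cell embryos, were used only to define maternal and zygotic genes and to set levels side by side. The paper took their data from earlier studies of its authors.

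YTHDF2 is a cytoplasmic reader protein. It binds mRNAs that carry N6-methyladenosine (m6A), a mark set by the METTL3 and METTL14 writer complex and removed by the erasers ALKBH5 and FTO, and it recruits the CCR4-NOT deadenylase and, through other partners, decapping and endonuclease enzymes that degrade the mRNA. Early embryos start with mRNAs stored in the oocyte, clear them in successive waves, and take over with transcripts of their own genome, a change known as the maternal-to-zygotic transition. In goats the main wave of genome activation falls around the 8-cell stage.

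The antisense strands of the 2 siRNAs are shown first because they define the treatment. They are written 5′ to 3′, with the seed, bases 2 to 8 from the 5′ end, in capitals.
s28148 antisense: uUGCUAGCaauaucagcccaa
s28147 antisense: uGGUCUAUaguauucaugcca
Both have 21 bases, of which 19 pair with the sense strand, and the paired part holds 47.37% G and C in s28148 and 36.84% in s28147. The seeds of the pair differ. The sense strands are as follows.
s28148 sense: gggcugauauugcuagcaatt
s28147 sense: gcaugaauacuauagaccatt

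YTHDF2 itself stood at 112 and 159 FPKM in the NC libraries and at 8.07 and 4.47 FPKM in the YTHDF2 siRNA libraries. FPKM is the number of fragments counted for a gene, scaled for its length and for the size of the library. The groups lay far apart, and the log2 fold change was -4.25 ± 0.43 (SE), with an adjusted p of 0.000367 (limma) and -4.87 to -3.63 over the 4 pairs of an NC with a YTHDF2 siRNA library. Fold changes are on the log2(FPKM + 1) scale and understate the change of low genes. Untreated 8-cell embryos, whose values were normalized apart, had 10.8, 16.7 and 12.5 FPKM of YTHDF2. The NC values were above the untreated values as well as above the knockdown values. As the untreated libraries came from earlier studies, their difference from NC was not tested.

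Replicates were closer to each other than to the other group. Pearson's r of the log2 values across 11004 genes was 0.947 between the NC libraries, 0.951 between the YTHDF2 siRNA libraries and 0.843 to 0.914 between groups. Between replicates 1345 and 1404 genes were more than 2-fold apart, against 2208 to 4457 genes between an NC and a knockdown library. The number of genes above 0 was 16619 to 18104 per library, and the 100 highest genes took 38.4 and 43.3% of the summed FPKM in the NC libraries and 43.8 and 48.4% in the knockdown libraries. The depth of these libraries is unknown, because the deposited values are FPKM rounded to 2 decimals.

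A gene was called when its adjusted p was under 0.05 and its change more than 2-fold. By this rule 227 genes were higher (2.06% of the 11004 tested) and 651 lower (5.92%) in the knockdown, or 7.98% in either direction. The study's cut-offs use an unadjusted p, and applied to the limma p they gave 1043 higher (9.48%) and 1685 lower (15.3%) genes. The study itself used DESeq2 on counts, so these are not its own numbers. Below, the study's rule means its cut-offs on the limma p. In 3334 genes (30.3%) both knockdown values were above both NC values, and in 3382 (30.7%) both were below, so the groups did not overlap in 61.0% of the genes. Over the whole table the log2 fold change had a median of 0.01. Median-ratio rescaling lowered the share of higher genes among the calls from 25.85% to 16.83%, with 68 higher and 336 lower. Without the filter on low genes, no gene was called in either direction by limma, while 903 and 1518 passed the study's rule. There were 47 higher and 171 lower genes without NC replicate 1, 12 and 223 without NC replicate 2, 490 and 1165 without YTHDF2 siRNA replicate 1, and 69 and 264 without YTHDF2 siRNA replicate 2. Each of these fits leaves 1 group with a single library, which is assumed to vary as the 2 libraries of the other group do. Of the 96 called genes named below, 36 lost their call under more than 5 of up to 12 alternative settings, 4 of which are these fits, and those losses are given beside the genes.

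**Figure D1:**
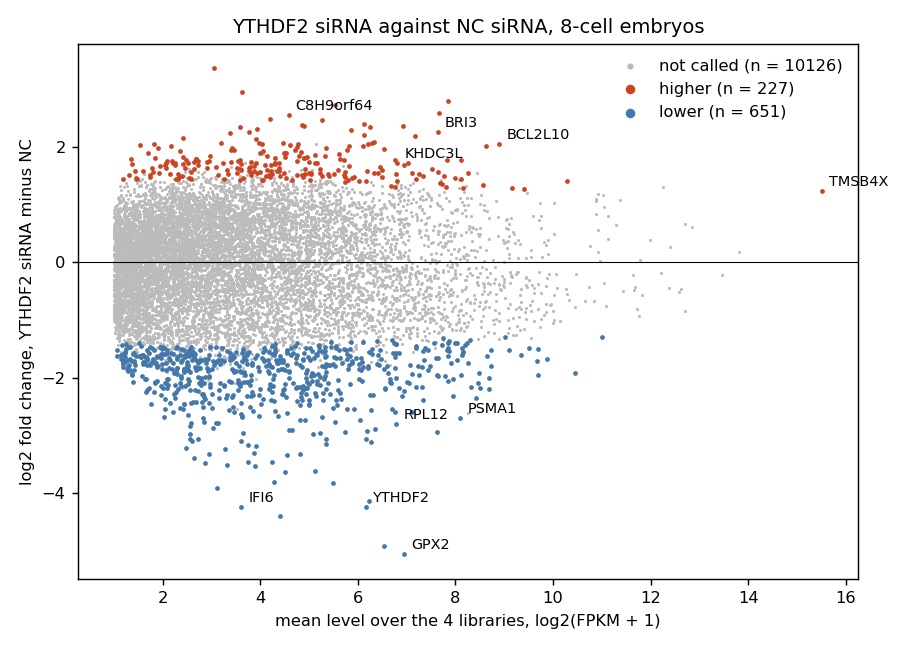
Each point is one of the 11004 tested genes. The x axis is its mean level over the 4 libraries as log2(FPKM + 1), and the y axis its log2 fold change, YTHDF2 siRNA minus NC. Red points are the 227 called higher genes and blue points the 651 called lower genes. The lower genes reach further from 0, to -5.07 for GPX2.

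Among the lower genes 252 changed more than 4-fold and 6 more than 16-fold, against 40 and 0 of the higher genes. In 132 of the lower genes the knockdown mean was under 1 FPKM, so they passed the filter through their NC values, and 25 of the higher genes passed it through the knockdown. Without these genes 196 of 519 lower genes changed more than 4-fold and 5 more than 16-fold, against 35 and 0 of 202 higher genes. Among the genes named below these were ACP5, AIF1, C1QA, C1QC, CD68, CD74, CTSK, CTSS, EIF2B5, FCER1G, HSPB3, IFI6, MRPL30 and PLAC9, all of them lower. The lower genes had a median level of 23.7 FPKM in the NC group and 4.73 FPKM in the knockdown. The higher genes went from 8.53 to 30.6 FPKM. Names without a gene symbol (LOC names) made up 31.6% of the lower and 26.4% of the higher genes, against 18.0% of all tested genes.

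For these called genes the untreated 8-cell libraries were also looked up. Their values came from earlier studies and were normalized apart, and no test was made. Over the 631 lower genes listed there, the median was 23.5 and 22.8 FPKM in the NC libraries, 6.47 and 3.79 FPKM in the knockdown libraries, and 1.15, 1.25 and 0.80 FPKM in the untreated libraries. Over the 227 higher genes it was 9.73 and 7.56 FPKM in NC, 26.1 and 35.3 FPKM in the knockdown and 35.8, 23.9 and 27.7 FPKM in the untreated libraries. In both sets the knockdown medians lay nearer to the untreated medians than the NC medians did. Both sets were chosen by these same NC and knockdown values, and 132 of the lower genes passed the filter through NC. The medians are therefore no test of which group was closer to untreated embryos. Over all tested genes listed in the untreated libraries the medians were 7.48, 6.38, 7.35, 6.52, 6.73, 4.68 and 4.73 FPKM in the same order. Single genes that were not called could still differ widely from the untreated libraries. FAU had 10497 and 13882 FPKM in NC, 10279 and 10595 FPKM in the knockdown and 125, 256 and 76.8 FPKM in the untreated libraries. In PTTG1 the values were closer, at 5810 and 5579, 6514 and 11762, and 4915, 8768 and 7669 FPKM.

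Genes with a symbol whose mean reached 10 FPKM were ranked by their change. The furthest falls are given first. GPX2, a glutathione peroxidase, had 370 and 108 FPKM in NC and 6.57 and 3.74 FPKM in the knockdown (log2 fold change -5.07 ± 0.53, limma adjusted p 0.000367). IFI6, an interferon-induced gene, had 8.84 and 36.0 FPKM in NC and was listed at 0 in both knockdown libraries, so it passed the filter through NC. ULBP3, a stress ligand seen by natural killer cells, had 69.4 and 56.1 FPKM in NC and 7.85 and 2.04 FPKM in the knockdown. In all 3 genes the groups did not overlap, with GPX2 and IFI6 also over 3-fold apart between the NC libraries.

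NDUFA13, GTPBP10 and SMDT1, which act in mitochondria, were also among the 10 furthest falls. NDUFA13, a subunit of respiratory complex I, had 40.7 and 41.4 FPKM in NC and 1.69 and 5.36 FPKM in the knockdown (-3.35 ± 0.47, limma adjusted p 0.00247). GTPBP10, a GTPase for assembly of the mitochondrial ribosome, had 30.2 and 22.1 against 2.38 and 0.59 FPKM. SMDT1, a part of the mitochondrial calcium uniporter, had 28.7 and 23.1 against 3.88 and 0.76 FPKM. All 3 fell more than 4-fold. The other falls were SPTSSA, a small subunit of serine palmitoyltransferase (48.0 and 19.4 against 3.39 and 0.85 FPKM), IL1RL1, the receptor of interleukin 33 (33.9 and 17.1 against 2.67 and 0.76 FPKM), SPP1 and YTHDF2. SPP1, which encodes the secreted protein osteopontin, had 8.33 and 96.04 FPKM in the NC libraries, so its level rested on NC replicate 2, against 1.21 and 3.11 FPKM in the knockdown.

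The furthest rises included an RNA-binding protein of the maternal programme. PABPN1L, a poly(A)-binding protein of oocytes and early embryos, had 3.59 and 2.34 FPKM in NC and 16.3 and 22.03 FPKM in the knockdown (2.35 ± 0.43, limma adjusted p 0.00832). C8H9orf64 rose from 7.15 and 4.66 to 31.1 and 48.8 FPKM, and C5H12orf75, another open reading frame named after its human counterpart, from 4.53 and 20.8 to 43.8 and 81.3 FPKM. The groups were apart in each, although NC replicate 2 came close in C5H12orf75. SIVA1, a regulator of apoptosis, rose from 23.4 and 14.2 to 78.2 and 113 FPKM. BRI3 rose from 78.4 and 58.2 to 314 and 343 FPKM, with the replicates close together. KCNN4, a calcium-activated potassium channel, rose from 5.86 and 2.12 to 18.9 and 23.6 FPKM.

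BRPF3, a scaffold of histone acetyltransferase complexes, had 8.02 and 57.3 FPKM in NC and 103 and 109 FPKM in the knockdown. Its NC libraries differed more from each other than NC replicate 2 did from the knockdown, and its call was lost under 7 settings. The chemokine CCL25 rose from 45.2 and 56.6 to 276 and 198 FPKM, the nucleoside diphosphate kinase NME3 from 4.95 and 4.09 to 18.4 and 29.3 FPKM, and SLX1A, a subunit of a structure-specific endonuclease, from 37.7 and 22.8 to 112 and 147 FPKM. The untreated 8-cell libraries had 145, 91.0 and 192 FPKM of CCL25 and 423, 109 and 137 FPKM of BRPF3, but 8.00, 9.49 and 3.54 FPKM of BRI3. Rises therefore differed in how they stood against untreated embryos.

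**Figure D2:**
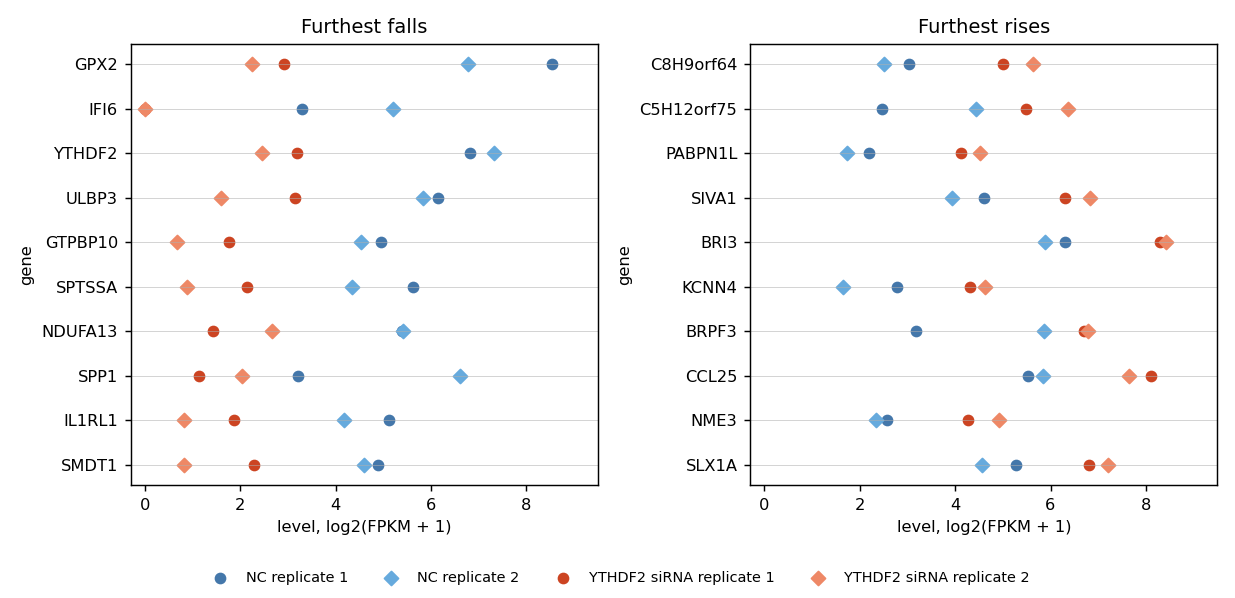
Levels of the 10 furthest falls (left) and 10 furthest rises (right) in each library, as log2(FPKM + 1). Blue points are the 2 NC libraries, red points the 2 YTHDF2 siRNA libraries, and the points of IFI6 at 0 cover each other. In all 20 genes both knockdown points lie on one side of both NC points, with the NC points widest apart for SPP1 and BRPF3.

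Among the 10 most abundant genes, only TMSB4X was called. It encodes thymosin beta 4, a small protein that holds actin monomers, and it was the highest gene of all 4 libraries. It had 22973 and 33300 FPKM in NC and 55835 and 75571 FPKM in the knockdown (1.23 ± 0.31, limma adjusted p 0.0304), or 4.00 and 5.35% against 9.87 and 12.6% of the summed FPKM. Its relative TMSB10 stood at 7989 and 9292 against 5169 and 4418 FPKM (-0.85, limma adjusted p 0.103) and was not called. The mitotic genes CKS2 and PTTG1, the ribosomal FAU and the ubiquitin ligase subunit SKP1 were not called either (0.18, 0.62, -0.21 and -0.45), nor were the ubiquitin gene UBB (0.27), the initiation factor EIF1 (-0.45), LOC102171358 (0.67) and LOC102174738 (-0.51). TMSB4X lost its call under 8 of 12 alternative settings.

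Some genes known from macrophages were present in both NC libraries and at 0 in both knockdown libraries. Of the 18 genes listed at 0 in both knockdown libraries and at 1 FPKM or more in both NC libraries, 9 had a symbol, namely AIF1, CTSS, FCER1G, C1QA, C1QC, ACP5, CTSK, IFI6 and PLAC9. The reverse pattern was found in 0 genes. AIF1, a macrophage calcium-binding protein, had 5.19 and 13.1 FPKM in NC, and FCER1G, the common gamma chain of Fc receptors, had 4.75 and 20.5 FPKM. The complement genes C1QA and C1QC had 1.22 and 3.64, and 1.10 and 4.05 FPKM, and lost their calls under 6 and 7 of 11 settings. These genes were singled out after their values were seen.

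A list of 16 macrophage markers was also put together after the values were seen, so its calls are not counted. Its summed level was 40.3 and 98.5 FPKM in the NC libraries, 23.6 and 19.1 FPKM in the knockdown libraries, and 8.28 to 13.2 FPKM over the 12 genes listed in the untreated 8-cell libraries. In the knockdown libraries 6 and 9 of the 16 were at 0, against 0 in either NC library. The general blood list had 11 genes, of which 8 were in the table and 5 were tested. CD74 and CD68 were called lower, at 2.26 and 6.36 against 0.07 and 0 FPKM, and 3.19 and 3.92 against 0.71 and 0.30 FPKM, and both passed the filter on low genes through their NC values. The call of CD68 was lost under 7 of 11 settings. TYROBP had 1.27 and 4.85 against 0.56 and 0 FPKM (-1.54, limma adjusted p 0.0619). LAPTM5 (7.62 and 13.9 against 16.7 and 13.2 FPKM) and MRC1 (3.89 and 3.49 against 3.70 and 4.12 FPKM) did not follow them, and the pan-leukocyte gene PTPRC stayed under 1 FPKM in all 4 libraries. The summed level was higher in the NC than in the knockdown libraries, but the genes were chosen with these values known. This difference is therefore no independent result. The untreated sums cover fewer genes and were normalized apart, so they are not set against it. RNA of other cells in the NC libraries and a loss of such RNA in the knockdown cannot be told apart from these 4 libraries, nor can fewer cells of a type and less RNA per cell. Every fall given here is relative to these NC libraries, and the part of the markers in the gene groups below was not tested.

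The counts in the gene lists below stand against the 2.06% higher and 5.92% lower over all tested genes, so in a short list 0 or 1 calls are near that share. Counts by the study's rule stand against 9.48% higher and 15.3% lower. Of 37 lists with 5 or more tested genes, 28 had a median below 0.

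Among the m6A writers 0 of 9 tested genes were called in either direction by limma, and 0 by the study's rule, with a median of -0.04. METTL3, the catalytic subunit, had 5.50 and 3.08 FPKM in NC and 2.92 and 5.41 FPKM in the knockdown, and METTL14, its partner, 9.43 and 14.9 against 8.75 and 20.5 FPKM. The groups overlapped in both. The eraser ALKBH5 had 7.69 and 6.28 against 19.3 and 18.7 FPKM, well apart, but missed the threshold (1.33 ± 0.42, limma adjusted p 0.0608). FTO was too low to be tested.

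The other YTH readers were not called. YTHDF1, the closest relative in the cytoplasm together with YTHDF3, had 2.79 and 2.29 against 4.28 and 4.08 FPKM (0.55 ± 0.42, limma adjusted p 0.387). YTHDF3 had 29.6 and 59.7 against 31.4 and 22.4 FPKM (-0.65 ± 0.45, adjusted p 0.342), with overlapping groups. The nuclear reader YTHDC1 had 31.1 and 42.3 against 21.2 and 14.0 FPKM (-1.03 ± 0.42, limma adjusted p 0.128), and the helicase reader YTHDC2 3.23 and 2.74 against 3.26 and 4.93 FPKM. YTHDF2 was the only one of the 5 whose groups were more than 2-fold apart in every library pair.

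Of 12 further RNA-binding proteins linked to m6A, 1 was lower and 0 higher, with a median of -0.47. Both knockdown values were below both NC values in 5 (41.7%) and above in 2 (16.7%), against 30.7 and 30.3% of all tested genes. LRPPRC, which stabilizes mitochondrial mRNAs, had 11.98 and 19.4 FPKM in NC and 3.24 and 1.6 FPKM in the knockdown (-2.29 ± 0.45, limma adjusted p 0.0115). The readers IGF2BP2 and IGF2BP3, which stabilize m6A mRNAs, lay higher without passing the adjusted threshold, at 4.43 and 3.34 against 11.5 and 10.3 FPKM, and 83.5 and 60.0 against 190 and 164 FPKM (limma adjusted p 0.0710 and 0.0534), and are the 2 with both values above. Besides LRPPRC, the 5 with both below were HNRNPA2B1, RBMX, FMR1 and FXR1, which were not called.

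Deadenylation removes the poly(A) tail and is the first step of most mRNA decay. Of 11 CCR4-NOT subunits 1 was higher and 0 lower, with a median of 0.43. The higher one was CNOT10, a non-catalytic subunit, at 33.8 and 19.9 FPKM in NC and 84.2 and 68.8 FPKM in the knockdown (1.52 ± 0.42, limma adjusted p 0.0413), and it lost its call under 8 of 12 alternative settings. The scaffold CNOT1, which YTHDF2 contacts, had 32.8 and 31.8 against 28.8 and 18.2 FPKM (-0.47, limma adjusted p 0.460). The catalytic CNOT6L had 14.2 and 12.6 against 22.2 and 30.3 FPKM (0.90, limma adjusted p 0.163), and CNOT11 21.8 and 25.6 against 15.9 and 19.9 FPKM (-0.39, limma adjusted p 0.550). In these 3 the groups were apart by less than 2-fold in the fit.

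Of 14 adaptors that bring deadenylases to mRNAs, 2 were higher and 1 lower. BTG3, an antiproliferative protein that binds CCR4-NOT, had 238 and 234 FPKM in NC and 51.7 and 27.9 FPKM in the knockdown (-2.60 ± 0.41, limma adjusted p 0.00416). ZFP36L1, which binds AU-rich mRNAs, rose from 13.02 and 9.74 to 30.8 and 35.3 FPKM, and NANOS1, a partner of Pumilio proteins, from 10.6 and 7.04 to 23.8 and 30.6 FPKM. These 2 calls were lost under 8 and 7 of 12 settings. BTG4, the adaptor of maternal mRNA clearance in oocytes and zygotes, had 1830 and 1078 against 2258 and 3335 FPKM (0.97 ± 0.38, limma adjusted p 0.112). Among 6 other deadenylases and uridylyltransferases 0 were called by limma and 1 was lower by the study's rule, namely PAPD4, a cytoplasmic poly(A) polymerase, at 88.5 and 89.9 against 39.3 and 35.7 FPKM (-1.23, limma adjusted p 0.0643).

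Decapping removes the cap from shortened mRNAs, and the exosome degrades mRNAs from the 3′ end. Of 16 decapping and 5′ to 3′ decay genes 1 was lower and 0 higher, with a median of -0.36. By the study's rule 6 were lower (37.5%), against 15.3% of all tested genes. The called gene was LSM5, of the ring that binds shortened tails, at 299 and 313 against 110 and 135 FPKM (-1.32 ± 0.37, limma adjusted p 0.0449). It lost its call under 11 of 12 alternative settings. The decapping activator DCP1A had 35.3 and 42.0 against 19.5 and 15.2 FPKM (-1.12, limma adjusted p 0.0964), and the decapping enzyme DCP2 72.6 and 127 against 59.6 and 41.6 FPKM (-0.93, limma adjusted p 0.160). The helicase DDX6 had 13.9 and 12.5 against 6.47 and 3.10 FPKM. XRN1, the exonuclease that follows decapping, had 12.3 and 9.53 against 14.9 and 13.5 FPKM and did not share that direction.

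Of 15 genes of the RNA exosome and its cofactors 3 were lower and 0 higher, with a median of -0.69. EXOSC1 had 608 and 640 against 300 and 156 FPKM (-1.52 ± 0.40), EXOSC5 32.0 and 29.2 against 12.9 and 4.39 FPKM (-1.87 ± 0.48), and DIS3L, a cytoplasmic exonuclease of the complex, 99.0 and 156 against 46.3 and 34.6 FPKM (-1.61 ± 0.41). Their limma adjusted p were 0.0345, 0.0319 and 0.0310, and their calls were lost under 7, 6 and 7 of 12 settings. EXOSC6 was the 1 member whose knockdown values were both higher, at 0.82 and 0.58 against 1.85 and 2.69 FPKM. Of the 12 genes of the endonuclease route, which leads from YTHDF2 through an adaptor to RNase P and MRP, POP5 and RPP25L were lower and 0 were higher (median -0.68). POP5 had 59.4 and 35.3 against 10.9 and 7.53 FPKM, and RPP25L 9.81 and 6.07 against 1.99 and 2.06 FPKM. The call of RPP25L was lost under 9 of 11 settings. Among 10 nonsense-mediated decay genes 0 were called by limma and 0 by the study's rule.

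**Figure D3:**
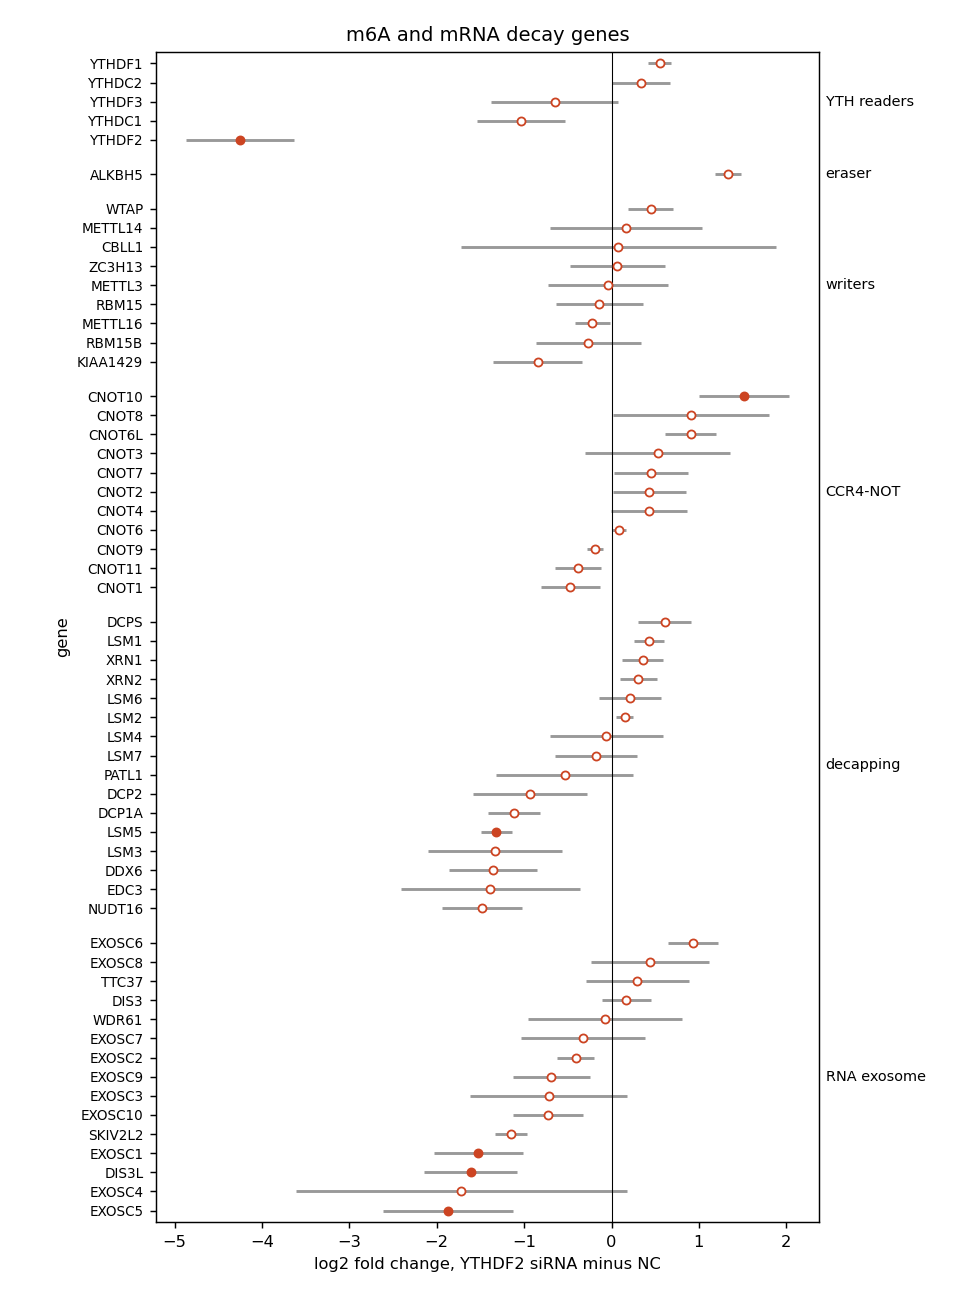
Log2 fold change, YTHDF2 siRNA minus NC, of the tested m6A writers, eraser and YTH readers and of the CCR4-NOT, decapping and exosome genes. The deadenylase adaptors, the other deadenylases and the other lists are not drawn. Points are the fitted values, filled where called, and grey lines span the 4 library pairs. YTHDF2 stands apart at -4.25, most decapping and exosome genes lie left of 0, and of the genes drawn only CNOT10 is called to the right of 0.

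Oocyte genes lay higher in the knockdown almost throughout. Of 39 listed oocyte genes 34 were in the table and 31 passed the filter. Of these 31, 2 were higher and 0 lower by the adjusted rule. By the study's rule 14 were higher (45.2%) and 0 lower, against 9.48 and 15.3% of all tested genes. In 25 of the 31 both knockdown values were above both NC values, against 30.3% of all tested genes. In 0 were both below, against 30.7%. The median log2 fold change was 0.97, with 0.56 to 1.37 over the library pairs, where all tested genes had 0.01. A list of oocyte genes was part of the results known when the lists were chosen.

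KHDC3L, a component of the subcortical maternal complex, had 63.7 and 40.1 FPKM in NC and 154 and 186 FPKM in the knockdown (1.72 ± 0.40, limma adjusted p 0.0223). MOS, the kinase that holds the egg in metaphase II, had 91.5 and 34.0 against 133 and 261 FPKM (1.72 ± 0.49, limma adjusted p 0.0466). The groups were apart in both, by less in MOS, where NC replicate 1 lay close to YTHDF2 siRNA replicate 1 and the call was lost under 8 of 12 settings. Of the zona pellucida genes, ZP2 had 148 and 122 against 232 and 575 FPKM, and ZP3 19.0 and 8.85 against 36.6 and 33.4 FPKM (limma adjusted p 0.0595 and 0.0717).

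The secreted oocyte growth factors GDF9 and BMP15 had 82.9 and 59.8 against 107 and 177 FPKM, and 251 and 154 against 291 and 470 FPKM. Neither was called. NPM2, the oocyte histone chaperone, had 24.5 and 15.5 against 56.9 and 48.7 FPKM (1.39, limma adjusted p 0.0544), and PADI6, another subcortical complex protein, 7.23 and 5.06 against 17.7 and 16.9 FPKM (1.38, limma adjusted p 0.0584). FBXO43, an inhibitor of the anaphase-promoting complex, had 10.2 and 11.8 against 29.1 and 29.0 FPKM. The germ cell helicase DDX4 was the furthest below 0, at 11.4 and 6.66 against 3.80 and 8.22 FPKM with overlapping groups. The untreated 8-cell libraries had 21.2, 18.8 and 26.3 FPKM of KHDC3L, below both injected groups. Other genes known from oocytes lay above their NC values there, such as BCL2L10 (1633, 686 and 776 FPKM) and PABPN1L (102, 4.52 and 20.7 FPKM).

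**Figure D4:**
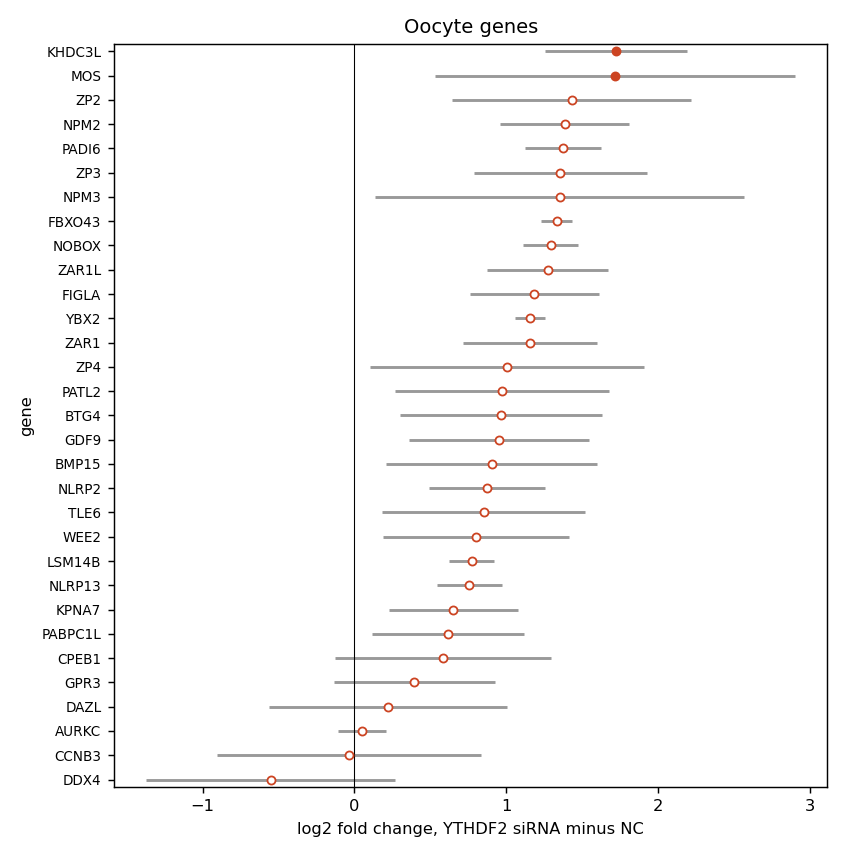
Log2 fold change, YTHDF2 siRNA minus NC, of the 31 tested oocyte genes. Points are the fitted values, filled for the 2 called genes, and grey lines span the 4 library pairs. For 25 genes the whole line lies right of 0.

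Maternal and zygotic genes were defined in the untreated libraries, which share no sample with the injected ones. Maternal genes were lower at the 4-cell or the 8-cell stage than in MII oocytes, and comprised 802 genes (8.82% of 9090). They were split by the sign of their difference between the 8-cell and the 4-cell stage, with no test of that difference. The 575 (6.33%) with any decrease in mean value between these stages are called Z-decay genes, and the remaining 227 (2.50%) M-decay genes. Zygotic genes, higher at the 8-cell stage than in both earlier stages, comprised 186 genes (2.05%). Apart from that split, a difference between stages had an adjusted p under 0.05 and was more than 2-fold.

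Maternal genes had a median near that of all tested genes. Of 748 tested, 29 were higher and 54 lower in the knockdown, which is 3.88 and 7.22% against 2.06 and 5.92% of all tested genes, and the median was 0.03 with -0.14 to 0.14 over the library pairs. Of 214 M-decay genes 9 were higher and 13 lower, with a median of 0.21, and of 534 Z-decay genes 20 were higher and 41 lower, with a median of -0.06. Of 174 zygotic genes 13 were higher and 10 lower, with a median of 0.03. Leaving out 1 library gave 1 to 54 higher and 9 to 93 lower maternal genes, 0 to 12 and 2 to 27 M-decay genes, 1 to 42 and 5 to 66 Z-decay genes, and 1 to 22 and 1 to 14 zygotic genes, with the fewest without an NC library and the most without YTHDF2 siRNA replicate 1. Both knockdown values were above both NC values in 30.9% of the maternal, 33.6% of the M-decay, 29.8% of the Z-decay and 29.9% of the zygotic genes, and below in 32.8, 25.7, 35.6 and 29.9%, against 30.3 and 30.7% of all tested genes. The wider list of genes higher at the 8-cell stage than in MII, 1598 of them tested, had 37.4% above and 24.6% below, with a median of 0.17, and 43 called higher and 55 lower.

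The level of each list was also taken per library. The median log2(FPKM + 1) of maternal genes was 4.40 and 4.09 in NC and 4.30 and 4.34 in the knockdown, a difference of 0.08. The difference was 0.29 for M-decay, -0.01 for Z-decay and 0.23 for zygotic genes. The exact permutation p were 1, 0.667, 1 and 1 (two-sided), but 2 against 2 libraries cannot give a p below 0.333, so this test could not have called a difference of any size.

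The shares of maternal and zygotic genes among the called genes are given as a description. Of the higher genes present in both fits 14.9% were maternal and 6.70% zygotic, of the lower genes 17.2 and 3.18%, and of all genes 8.96 and 2.08%. Spearman's rho between the knockdown log2 fold change and the untreated change from MII to the 8-cell stage was 0.05 across 8348 genes, and 0.13 with the change from the 4-cell to the 8-cell stage. Genes are not independent replicates, so no p is given. Of the 8348 genes 194 were called higher and 314 lower. A group of 186 genes had an untreated level more than 4-fold lower at the 8-cell stage than in MII, by its fitted value alone. Their median was -0.37, with 4 higher (2.15%) and 23 lower (12.4%). Among the 555 genes 2- to 4-fold lower the median was 0.15, with 24 higher (4.32%) and 42 lower (7.57%). Over the bins between -1 and 4 on the log2 scale it was 0.08 to 0.23. Among the 45 genes more than 16-fold higher it was 0.11, with 5 higher (11.1%) and 0 lower.

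Among maternal genes with a symbol and a mean of 10 FPKM or more, the furthest rises were NME3 and SLX1A (above), YPEL3, BCL2L10 and EEF1B2. BCL2L10, an apoptosis regulator of the oocyte, had 117 and 244 FPKM in NC and 447 and 1102 FPKM in the knockdown (2.05 ± 0.48, limma adjusted p 0.0216). EEF1B2, a translation elongation factor subunit, rose from 21.0 and 31.6 to 72.6 and 165 FPKM (call lost under 6 of 12 settings), and YPEL3 from 11.0 and 4.99 to 34.2 and 35.0 FPKM. The furthest falls among the same genes were ATP5I, an ATP synthase subunit (88.1 and 57.5 against 7.11 and 7.21 FPKM), the ribosomal genes MRPL21 and RPL12, APIP, an enzyme of methionine salvage (77.8 and 52.1 against 16.4 and 4.79 FPKM), and ZNHIT1, a subunit of a chromatin remodeller (163 and 198 against 51.1 and 16.2 FPKM). Replicates of the knockdown differed by more than 3-fold in APIP and ZNHIT1, yet both stayed below both NC libraries.

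Of the 13 higher zygotic genes, 3 had a symbol and a mean of 10 FPKM or more, namely LINGO2 (12.5 and 12.01 against 42.0 and 49.6 FPKM), CCDC3 (9.33 and 6.20 against 23.6 and 27.0 FPKM) and MTMR7, a phosphoinositide phosphatase (7.12 and 10.0 against 20.3 and 31.9 FPKM). Their log2 fold changes were 1.82, 1.6 and 1.49, and the calls of CCDC3 and MTMR7 were lost under 7 and 8 settings. Of the 10 lower zygotic genes, the 5 furthest by the same limits were YTHDF2 itself, CTSL, the chaperone cofactor PTGES3 (292 and 306 against 129 and 68.0 FPKM), the elongation factor ELL2 (51.0 and 65.1 against 24.0 and 15.5 FPKM) and B2M, the light chain of MHC class I (241 and 181 against 51.1 and 106 FPKM). PTGES3, ELL2 and B2M lost their calls under 7, 7 and 9 of 12 settings.

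Of 14 tested genes of genome activation 1 was lower and 0 higher, and 2 were lower and 0 higher by the study's rule, with a median of -0.31. The homeobox gene OTX2 had 386 and 472 FPKM in NC and 161 and 154 FPKM in the knockdown (-1.43 ± 0.37, limma adjusted p 0.0322), and its call was lost under 7 of 12 settings. LEUTX, a homeobox gene of the first activation wave in several mammals, had 2021 and 1600 against 2233 and 1879 FPKM (0.19), and ARGFX, of the same class, 514 and 1043 against 605 and 613 FPKM (-0.26). The groups overlapped in both.

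Of 10 pluripotency factors KLF5 was lower and 0 were higher, with a median of -0.71. KLF5 had 37.8 and 33.6 against 12.6 and 11.6 FPKM (-1.49 ± 0.41, limma adjusted p 0.0397), and its call was lost under 8 of 12 settings. Of 15 trophectoderm and hypoblast factors PDGFRA, a receptor of the hypoblast, was lower and 0 were higher, at 12.4 and 10.2 against 1.92 and 0.91 FPKM (-2.37 ± 0.44, limma adjusted p 0.00832). GATA6, the hypoblast transcription factor, had 27.0 and 23.8 against 11.6 and 9.04 FPKM (-1.23, limma adjusted p 0.0767).

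Ribosomal protein genes lay lower in the knockdown almost throughout. Of 80 tested cytosolic ribosomal proteins 29 were called lower (36.25%), against 5.92% of all tested genes, and 0 higher. By the study's rule 45 were lower (56.25%), against 15.3% of all tested genes. In 71 both knockdown values were below both NC values, against 30.7% of all genes. The median log2 fold change was -1.16, with -1.42 to -0.85 over the library pairs. As a share of the summed FPKM the 80 genes took 9.94 and 10.3% in NC and 6.68 and 5.33% in the knockdown. RPL37A had 367 and 324 against 60.1 and 32.4 FPKM (-2.94 ± 0.41), RPL12 190 and 195 against 32.6 and 21.7 FPKM (-2.81 ± 0.40), and RPL22 158 and 106 against 22.2 and 20.2 FPKM (-2.56 ± 0.41). In 7 the groups overlapped, FAU among them. In RPSA (472 and 476 against 687 and 688 FPKM) and RPS2 (229 and 229 against 244 and 296 FPKM) both knockdown values were higher and neither was called, a pair named after its values were seen. Ribosomal protein genes have many near-identical processed pseudogenes, which can take reads from them when only unique alignments are counted, so their levels are uncertain.

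The mitochondrial families had medians below -0.5 as well, where all tested genes had 0.01. Of 77 mitochondrial ribosomal proteins 17 were lower and 2 higher, with a median of -1.02. MRPL30, which passed the filter through NC, had 13.3 and 5.87 against 0.21 and 0.15 FPKM, and MRPL21 116 and 138 against 23.4 and 8.41 FPKM, with a log2 fold change of -3.07 in each. The higher pair was MRPL42 (93.0 and 102 against 240 and 473 FPKM) and MRPL38 (6.29 and 3.22 against 15.1 and 17.5 FPKM), of which MRPL38 lost its call under 7 of 12 settings. Of 58 oxidative phosphorylation subunits 14 were lower and 1 higher, with a median of -0.88. ATP5O, an ATP synthase subunit, had 176 and 110 against 17.5 and 18.3 FPKM (-2.89 ± 0.41), while NDUFV2 of complex I was the higher one (6.93 and 5.52 against 15.7 and 24.3 FPKM), with its call lost under 8 settings.

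Other basal machinery had medians nearer to 0. Of 45 proteasome genes 7 were lower and 0 higher (median -0.45). The core subunits PSMA2 and PSMA1 had 90.9 and 69.0 against 12.8 and 8.99 FPKM, and 462 and 484 against 95.6 and 53.9 FPKM. The ATPase subunit PSMC5 had 19.1 and 24.2 against 6.98 and 0.98 FPKM, and its call was lost under 6 settings. Of 48 translation initiation factors 4 were lower and 0 higher (median -0.46), namely EIF2B5, EIF4E2, EIF3G and EIF2S1, the last of which lost its call under 7 settings. EIF2B5, of the guanine exchange factor, fell from 7.12 and 6.76 to 0.34 and 0.29 FPKM and passed the filter through NC.

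Of 25 subunits and partners of RNA polymerases I to III, POLR2L, POLR2G, POLR3F and POLR2M were lower and 0 higher (median -0.51). POLR2G, an RNA polymerase II subunit, had 269 and 272 against 43.2 and 59.9 FPKM (-2.39 ± 0.39, limma adjusted p 0.00459), whereas POLR2M lost its call under 7 of 12 settings. Of 75 splicing genes 3 were lower and 0 higher (median -0.24), namely SF3B5, SNRPD2 and LSM5. SF3B5 had 674 and 525 against 270 and 135 FPKM. The calls of SF3B5, SNRPD2 and LSM5 were lost under 7, 8 and 11 of 12 settings. Among 47 nucleoporins and transport receptors 0 were called (median -0.36). By the study's rule 10 were lower (21.3%) and 2 higher (4.26%), against 15.3 and 9.48% of all tested genes.

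**Figure D5:**
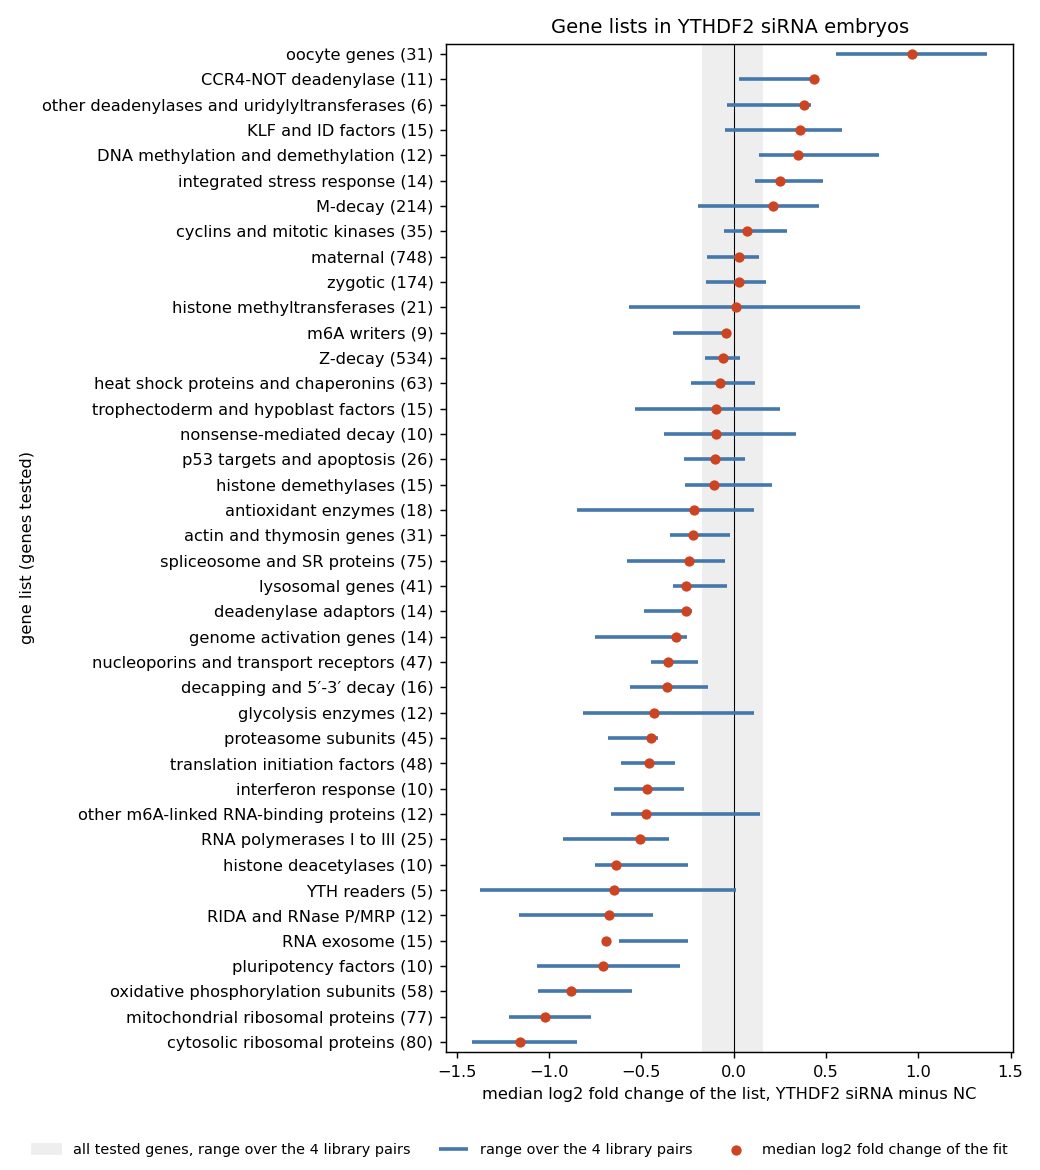
Median log2 fold change, YTHDF2 siRNA minus NC, of the gene lists, with the number of tested genes in brackets. The marker lists, the erasers (1 tested gene), the study-named genes and the genes higher at 8 cells than in MII are not drawn. Red points are medians of the fitted values, blue lines the range of the medians taken in each of the 4 library pairs, and the grey band that range over all tested genes. Of the lists drawn, oocyte genes lie furthest right at 0.97 and cytosolic ribosomal proteins furthest left at -1.16, and the point of the RNA exosome lies outside its own line because the median gene differs between pairs.

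The calls among chromatin and DNA methylation enzymes, 0 or 1 a list, were too few to set these lists apart from the 7.98% of all tested genes called in either direction. Among 12 DNA methylation genes 0 were called by limma and 1 was higher by the study's rule (median 0.35). UHRF1 and UHRF2, which guide maintenance methylation, had 18.8 and 11.7 against 29.5 and 27.1 FPKM, and 92.9 and 85.5 against 150 and 151 FPKM. The de novo enzymes DNMT3A and DNMT3B had 4.95 and 4.86 against 13.6 and 7.63 FPKM, and 2.30 and 1.34 against 4.61 and 5.69 FPKM (limma adjusted p 0.175 and 0.103). In these 4 both knockdown values were above both NC values. Over the 12 genes this held for 5, and the reverse for 2, against 30.3 and 30.7% of all tested genes. Among 15 histone demethylases and 21 histone methyltransferases 0 were called by limma, against 1 higher, and 1 higher and 1 lower, by the study's rule.

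Of 10 tested histone deacetylases 1 was higher and 0 lower. HDAC3 rose from 32.0 and 24.9 to 71.6 and 80.2 FPKM (1.39 ± 0.40, limma adjusted p 0.0465), and lost the call under 9 alternative settings. HDAC1 had 32.1 and 20.3 against 12.5 and 7.77 FPKM (-1.28, limma adjusted p 0.0806), and HDAC2 231 and 245 against 124 and 70.1 FPKM (-1.34, limma adjusted p 0.0544). The groups did not overlap in any of the 3, and HDAC1 and HDAC2 were not called. Of the 33 tested genes that the study names for its RNA-seq data, CNOT10 and HDAC3 were higher and YTHDF2 lower. By the study's rule 7 were higher (21.2%) and 4 lower (12.1%), against 9.48 and 15.3% of all tested genes. The groups did not overlap in 18 with higher (54.5%) and 10 with lower (30.3%) knockdown values, against 30.3 and 30.7% of all tested genes. That list was chosen by the study on these samples, so it is not independent evidence.

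Of 41 lysosomal genes 1 was higher and 3 lower, all of them cathepsins. CTSB rose from 33.2 and 62.7 to 121 and 139 FPKM, and its call was lost under 9 of 12 settings. CTSL fell from 16.3 and 23.0 to 4.57 and 5.45 FPKM, and CTSS and CTSK, with 5.88 and 15.03, and 4.06 and 1.58 FPKM in NC, were listed at 0 in the knockdown and passed the filter through their NC values. Of 63 heat shock proteins and chaperonins 5 were lower and 0 higher, the median being -0.07. They were HSPB3, DNAJC15, the chaperonin subunits CCT4 and CCT6A, and DNAJB9, of which CCT4 had 53.2 and 38.4 against 12.6 and 6.91 FPKM. DNAJB9, the last of the 5 by size of change, was named after its values were seen. The calls of CCT6A and DNAJB9 were lost under 7 and 10 of 12 settings.

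In the metabolic and stress lists the calls were near the 2.06% higher and 5.92% lower of all tested genes. Of 12 glycolysis enzymes ENO1 was lower (72.9 and 40.9 against 19.3 and 7.21 FPKM), and of 18 antioxidant enzymes the mitochondrial TXN2 (62.2 and 34.3 against 9.01 and 7.20 FPKM) and PRDX5 (74.9 and 46.6 against 24.2 and 10.6 FPKM) were lower, with 0 higher in either list and the call of PRDX5 lost under 6 of 12 settings. GPX2, the furthest fall of all genes, is a glutathione peroxidase too but is not on that list. Of 26 p53 and apoptosis genes BID and BAD, both promoters of apoptosis, were lower and 0 higher. BID had 18.3 and 19.5 against 6.89 and 2.49 FPKM, and BAD 3.76 and 11.4 against 1.89 and 0.57 FPKM, with the call of BAD lost under 6 of 11 settings. Of 10 interferon response genes IFI6, at 0 in the knockdown, was lower and 0 higher. Among 14 genes of the integrated stress response and 35 cyclins, kinases and licensing factors 0 were called by limma, and 1 and 4 were higher and 0 and 1 lower by the study's rule, with AURKA at 1477 and 955 against 2884 and 2273 FPKM (1.11, limma adjusted p 0.0689) and MCM4 at 7.96 and 7.21 against 21.2 and 19.2 FPKM (1.30, limma adjusted p 0.0643). Of 31 actin and thymosin genes TMSB4X was higher and the actin regulator CAP1 lower (19.2 and 14.5 against 4.48 and 3.17 FPKM). Of 15 KLF and ID factors KLF5 was lower and 0 higher.

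Markers of the embryo and of cells that can adhere to it were summed in each library. The oocyte and cleavage embryo markers summed to 3131 and 2102 FPKM in NC and 4433 and 4661 FPKM in the knockdown, with 0 of the 13 in the table at 0. The cumulus and granulosa markers, 21 of 23 in the table, summed to 87.4 and 72.5 against 131 and 130 FPKM, with 0 of 8 tested genes called by limma and 2 higher by the study's rule. DCN had 17.6 and 14.7 against 29.9 and 36.8 FPKM, HAS2 10.2 and 10.7 against 20.6 and 23.3 FPKM, and STAR 20.3 and 17.6 against 28.7 and 33.2 FPKM. The granulosa genes FSHR and INHA were at 0 in all 4 libraries. Others below the filter were not, such as AMHR2 (1.10 and 0.87 against 0.86 and 0.52 FPKM) and CYP19A1 (0.25 and 0.28 against 0.25 and 0.37 FPKM). COL1A2 had 6.67 and 9.63 against 4.70 and 3.60 FPKM. The sperm markers, 12 of 14 in the table, summed to 34.1 and 20.9 against 39.3 and 13.8 FPKM, and 1 of 5 tested, ODF2, was higher (2.28 and 1.12 against 7.05 and 5.75 FPKM) and lost its call under 10 of 11 settings. The cumulus sum thus lay higher in the knockdown. It is not set against the macrophage sum, whose genes were chosen after their values were seen. The part of the cumulus or the macrophage markers in the results above was not tested.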

How the data were processed

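In the study, pooled embryos were lysed without RNA extraction, and their cDNA was made by Smart-seq2, which primes on poly(A) tails, and sequenced. A gene's value therefore depends on polyadenylated mRNA. The authors mapped reads with HISAT2 to ARS1, a goat genome assembly, took uniquely mapped ones, and counted them per gene with HTSeq. The deposited tables hold the FPKM values the authors computed from these counts for each library, rounded to 2 decimals for the injected libraries. Their depth is unknown, so no interval from counting error is given. Leaving out 8 repeated names left 27121, and 11004 of them averaged 1 FPKM or more in the injected libraries. Of these, 99.9% matched a RefSeq symbol of a later assembly, so no coordinates are given, and 1986 were LOC names. Columns of values left unused numbered 0. The siRNA sequences were taken from the supplementary material of the study, and the place of their targets in the transcript was not analysed here.

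A linear model per gene was fitted on log2(FPKM + 1) by limma 3.58.1 (R 4.3.3), with eBayes and its trend option and without a replicate block, and p-values were adjusted over all tested genes by Benjamini-Hochberg. The study's own test was DESeq2 on counts, which were not used here. The untreated libraries were fitted in the same way and apart from the injected ones. Groups were said not to overlap when all 4 library pairs had 1 sign. The script was tested on simulated data. Tables and plots were made in Python 3.11.15. The text names list members, of which at most 4 a list beyond the m6A, decay, oocyte, genome activation and study-named lists, besides members said to be named after their values were seen. It also names the 10 furthest rises and falls and the 5 furthest called genes in each direction of the maternal and zygotic lists, among genes that have a symbol and average 10 FPKM or more, and the 10 most abundant genes. The comparison, the gene lists and the named genes were chosen with earlier results of these data known. Alternatives changed the pseudocount, the filter, the scaling, the trend option, the replicate block and the libraries included.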

Additional observations from a re-analysis of the deposited data

How the results depend on the processing

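The crossed replicate block was chosen after seeing the data. Higher and lower calls numbered 227 and 651, and became 68 and 336 after median-ratio rescaling, 76 and 210 after quantile normalization, 78 and 383 with the replicate number as a block, 688 and 1378 with the crossed replicate block, 1043 and 1685 with an unadjusted p, and 0 and 0 without the filter, where 903 and 1518 passed an unadjusted p and YTHDF2 itself kept its log2 fold change of -4.25 but lost its call. Leaving out 1 library gave 12 to 490 higher and 171 to 1165 lower calls. The deviations of same-numbered libraries correlated by -0.152 across genes. With 2 libraries a group, this cannot show whether the replicate numbers pair the samples. Of the maternal genes 29 higher and 54 lower became 8 and 28 after median-ratio rescaling, 7 and 18 after quantile normalization, 11 and 27 with the replicate block, 106 and 135 with an unadjusted p here and in making the list, 0 and 0 without the filter, and 1 to 54 and 9 to 93 without 1 library, and 49 and 67 when the list itself was made after median-ratio rescaling and held 1276 in place of 802 genes. Of the zygotic genes 13 higher and 10 lower became 8 and 6 with a pseudocount of 0.1, 4 and 3 after median-ratio rescaling, 4 and 2 after quantile normalization, 4 and 3 with the replicate block, 33 and 29 with an unadjusted p in both, 0 and 0 without the filter. Without 1 library they were 1 to 22 and 1 to 14. The 9 higher and 13 lower M-decay genes became 2 and 9 after median-ratio rescaling and 2 and 6 after quantile normalization. The 20 higher and 41 lower Z-decay genes became 6 and 19, and 5 and 12. At a mean of at least 5 FPKM the level difference became -0.05 for the zygotic list and -0.02 for the maternal list. At the same filter it was 0.15 for M-decay and -0.16 for Z-decay genes. The cause of these shifts was not tested.

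List medians held their sign under the 3 rescalings except those of heat shock proteins, histone methyltransferases and trophectoderm factors. Leaving out 1 library gave medians of 0.79 to 1.25 for oocyte genes and -1.16 to -0.84 for mitochondrial ribosomal proteins. For the 1 tested eraser they were 1.20 to 1.46, and the other lists follow below. Medians moved beyond the spread over pairs without the filter for the m6A erasers (0.36, with FTO then added to ALKBH5), deadenylase adaptors (-0.062), other deadenylases (0.087), decapping (-0.16), exosome (-0.41), histone deacetylases (0.027), nucleoporins (-0.17) and interferon genes (-0.11), at a mean of at least 5 FPKM for adaptors (-0.072), other deadenylases (0.085), lysosomal (0.10), interferon (0.020) and stress response genes (0.51), and after quantile normalization for ribosomal proteins (-0.87) and lysosomal genes (-0.12). Without 1 library the medians were -0.26 to -0.0826 for writers, -0.57 to 0.023 for other m6A-linked proteins, 0.10 to 0.49 for CCR4-NOT, -0.48 to -0.078 for adaptors, 0.13 to 0.53 for other deadenylases, -0.53 to -0.11 for decapping, -0.80 to -0.40 for the exosome, -0.29 to 0.26 for nonsense-mediated decay, -0.63 to -0.22 for genome activation, 0.028 to 0.68 for DNA methylation, -0.28 to 0.13 for demethylases, -0.64 to -0.40 for deacetylases, -1.35 to -0.87 for ribosomal proteins, -0.88 to -0.57 for oxidative phosphorylation, -0.79 to -0.54 for the proteasome, -0.61 to -0.37 for initiation factors, -0.94 to -0.39 for polymerases, -0.44 to -0.030 for nucleoporins, -0.33 to -0.0242 for lysosomal genes, -0.22 to 0.0092 for heat shock proteins, -0.67 to 0.0094 for glycolysis, -0.17 to 0.059 for apoptosis, 0.079 to 0.45 for the stress response, -1.14 to -0.15 for YTH readers, -0.99 to -0.55 for the RNase P and MRP route, -0.36 to -0.081 for splicing, -0.44 to 0.039 for antioxidant enzymes, -0.31 to 0.40 for histone methyltransferases, -0.27 to 0.085 for trophectoderm factors, -0.92 to -0.51 for pluripotency factors, -0.28 to -0.14 for actin genes, 0.13 to 0.52 for KLF and ID factors, -0.50 to -0.29 for interferon genes, -0.15 to 0.31 for cyclins and 0.10 to 0.55 for the study-named genes.

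Of the named genes, ARGFX turned to 0.071 after quantile normalization. Without 1 library ARGFX gave -0.78 to 0.25, CKS2 -0.22 to 0.57, METTL14 -0.40 to 0.74 and METTL3 -0.39 to 0.32. None of these was called. Over 157 named genes 1427 values kept direction and side of the threshold, 411 lost the call and 19 gained it. The unknown depth limits what can be said of genes near 0.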
